A study of Homo sapiens with 6 samples.

Results

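The aminoacyl-tRNA synthetase genes were followed in hiPSC-CMs, cardiomyocytes grown from pluripotent stem cells, after exposure to alcohol with or without losartan. The list held 36 genes, 20 for cytosolic and 16 for mitochondrial enzymes, and all 36 were found by symbol among the 21134 genes of the deposited table. The rule that chose them used gene names and no measured value, although the set was chosen with earlier results of these data known. The symbols are those of an older release, so that AARS, QARS or IARS now carry a 1 at the end (AARS1, QARS1, IARS1).

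RNA was sequenced from 6 libraries of cells of the line H9, which the labels call human induced pluripotent stem cell-derived cardiomyocytes although H9 is known as a line of embryonic stem cells. The control group had 2 libraries of untreated cells. The alcohol group had 2 libraries of cells given 100 mM alcohol for 24 h. The co-treated group had 2 libraries of cells given the same alcohol together with 1 μM losartan, a blocker of the angiotensin II type 1 receptor. Losartan was given at the same time by the labels, while the results of the study speak of a pretreatment. No group received losartan alone, all groups came from this single line, and nothing in the labels says whether the 2 libraries of a group were separate differentiations, so each p-value measures the spread between libraries that may be technical repeats.

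Aminoacyl-tRNA synthetases join each amino acid to its transfer RNA, the step that sets the genetic code before the ribosome reads it. Cells hold separate sets of these enzymes for the cytosol and for the mitochondrion, both encoded in the nucleus, and the mitochondrial set serves the small number of respiratory chain proteins that mitochondria translate themselves. The enzymes fall into class I and class II by the fold of their catalytic domain, and several cytosolic ones sit together with scaffold proteins in the multi-synthetase complex. GARS and KARS each encode the enzyme of both compartments, and EPRS joins the glutamyl and prolyl enzymes in a single chain. Heart muscle depends on both sets, and inherited faults of mitochondrial synthetases such as AARS2 are a known cause of childhood cardiomyopathy. Many cytosolic synthetase genes are known targets of ATF4, the transcription factor of the amino acid response, which binds with C/EBP proteins at a composite element.

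That composite element was looked for in the promoters because it is the sequence by which several cytosolic synthetases are known to be induced together. RefSeq promoters of 300 bases (250 before and 50 after the start, GRCh38.p14) were matched for 16 of the 20 cytosolic and 14 of the 16 mitochondrial genes. Only 1 promoter was used for each gene. For TARS, CARS2 and FARS2 it lay wholly inside the RefSeq gene, so that sequence before the outermost start was not searched. The element, searched on both strands as TGATGNAAN, stood in 6 of the 16 cytosolic promoters and 1 of the 14 mitochondrial ones, against 3.67% of all 27305 promoters. The windows are printed in the direction of the gene with the element in capitals, and where it runs on the other strand the capitals show its reverse complement.
AARS, chr16:70289676-70289704, minus strand: ttttctcgcaGTTGCATCAgccaagttag
CARS, chr11:3057408-3057436, minus strand: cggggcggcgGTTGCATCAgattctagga
IARS, chr9:92293693-92293721, minus strand: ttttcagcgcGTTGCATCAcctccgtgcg
MARS, chr12:57488053-57488081, plus strand: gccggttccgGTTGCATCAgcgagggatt
NARS, chr18:57621804-57621832, minus strand: ctacgctctcTGATGCAACgccggaatcg
TARS, chr5:33440956-33440984, plus strand: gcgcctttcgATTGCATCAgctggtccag
YARS2, chr12:32756076-32756104, minus strand: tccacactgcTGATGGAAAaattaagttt

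Read in the element's own direction, AARS, CARS, IARS, MARS and NARS held the same 9 bases, TGATGCAAC, and TARS held TGATGCAAT. In CARS, IARS, MARS, NARS and TARS the element began within 14 bases of the start of the promoter used, and in AARS it began 188 bases before it. The single mitochondrial match, in YARS2, read TGATGGAAA and began 197 bases before the start. A match describes letters in a window and is not evidence of binding, and a promoter without one says only that these letters were not in the 300 bases.

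Other short motifs were searched on both strands of the same promoters. The ETS motif CCGGAAG was in 8 of the 16 cytosolic and 6 of the 14 mitochondrial promoters, against 10.7% of all promoters. The E-box CACGTG was in the promoter of IARS and in those of CARS2, EARS2 and MARS2, against 7.43% of all. The core GCGCATGC of the site for NRF1, a regulator of nuclear genes for mitochondria, was in MARS2 and YARS2 and in none of the cytosolic promoters, against 3.27% of all. Many promoters are rich in G and C, and base composition was not matched in these shares.

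HARS and HARS2, the cytosolic and mitochondrial histidyl enzymes, lie head to head on chromosome 5, and the bases between their starts are shown because reads and promoter sequence of the pair meet there. Their annotated starts, 140691370 on the minus strand for HARS and 140691455 on the plus strand for HARS2, stood 85 bases apart. The stretch between them is printed on the plus strand, with the ETS motif in capitals once in each direction.
HARS and HARS2, chr5:140691371-140691454, plus strand: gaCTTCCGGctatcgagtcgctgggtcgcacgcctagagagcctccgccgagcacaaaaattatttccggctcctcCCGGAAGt

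The depth was even and low, between 4898287 and 5051448 expected counts per library, where an expected count is the number of reads that the authors' software assigned to a gene. The synthetases together took 0.283% to 0.309% of these counts, and a member had from 27 to 1439 expected counts in a library. Cardiomyocyte markers defined the samples, with all 12 measured and a summed FPKM (fragments per kilobase of transcript, scaled to the size of the library) of 19787 to 27654. Markers of other cell types summed to 332–400 for fibroblasts, 722–1926 for smooth muscle, 2.00–2.86 for endothelium, 35.9–47.6 for endoderm and 9.08–16.1 for pluripotent cells, and no marker was at 0 in all libraries. The cardiomyocyte sum was 27654 and 27313 in control, 26524 and 19787 with alcohol, and 22709 and 24526 in co-treated libraries. The smooth muscle sum was 1926 and 1689 in control, 1451 and 722 with alcohol, and 991 and 1036 in co-treated libraries, so that both sums were lower in all 4 libraries with alcohol than in both controls. The endoderm sum was higher in all 4, at 37.6 and 35.9 in control, 47.6 and 46.5 with alcohol, and 45.0 and 46.1 in co-treated libraries. In bulk RNA, fewer cells of a type and less RNA per cell cannot be told apart.

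Cytosolic synthetases were expressed at 4 times the level of the mitochondrial ones. The median over genes of the mean FPKM was 36.2 for the 20 cytosolic and 9.03 for the 16 mitochondrial members. All 20 cytosolic members and 14 of the 16 mitochondrial members lay above the median level of the expressed genes, which was 3.96. Expressed here means a mean FPKM above 0, which held for all 21134 genes, a wider set than the 14926 genes tested below. A mean above 20 FPKM was reached by 16 cytosolic members and 2 mitochondrial ones.

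**Figure D1:**
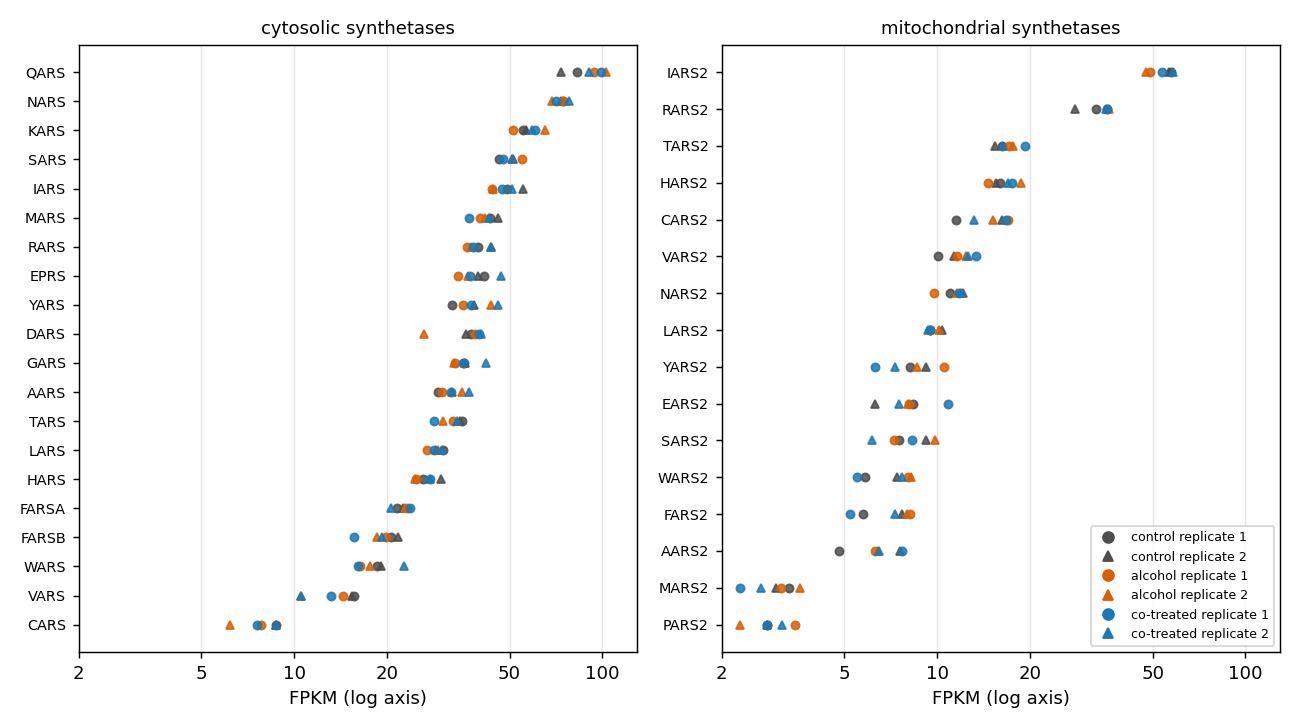
FPKM of the 36 synthetase genes on a log axis, 1 point per library, with colours for the 3 groups and genes ordered by mean within the cytosolic and mitochondrial sets. The cytosolic set runs from QARS at a mean of 90.5 down to CARS at 7.97 and the mitochondrial set from IARS2 at 53.8 down to PARS2 at 2.88.

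QARS, the glutaminyl enzyme, led the cytosolic set and had more FPKM than 96.9% of the expressed genes. Its FPKM was 82.6 and 73.7 in the control libraries, 94.3 and 103 with alcohol, and 98.7 and 90.7 in the co-treated libraries. The asparaginyl enzyme NARS came next, with 74.5 and 73.6 in control, 74.7 and 68.7 with alcohol, and 70.6 and 77.7 in co-treated libraries. The ranges of QARS and NARS overlapped, because control replicate 2 of QARS lay inside the range of NARS.

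KARS, the lysyl enzyme of both compartments, had 55.4 and 56.5 FPKM in control, 51.4 and 65.2 with alcohol, and 60.7 and 59.3 in co-treated libraries. SARS, the seryl enzyme, had 46.1 and 51.1 in control, 54.7 and 51.4 with alcohol, and 47.7 and 51.2 in co-treated libraries. All values of NARS lay above all values of KARS, while KARS and SARS overlapped.

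Below these, IARS and MARS, the isoleucyl and methionyl enzymes, had means of 48.4 and 41.7 FPKM. Then 9 genes lay close together between 39.7 for RARS and 26.8 for HARS, namely RARS, EPRS, YARS, DARS, GARS, AARS, TARS, LARS and HARS. FARSA and FARSB, the subunits of the cytosolic phenylalanyl enzyme, had means of 22.4 and 19.3, and the tryptophanyl enzyme WARS had 18.4. The phenylalanyl subunits overlapped in range.

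VARS, the valyl enzyme, and CARS, the cysteinyl enzyme, closed the cytosolic order. VARS had 15.7 and 15.4 FPKM in control, 14.5 and 10.5 with alcohol, and 13.2 and 10.5 in co-treated libraries. CARS had 8.76 and 8.72 in control, 7.83 and 6.21 with alcohol, and 7.60 and 8.72 in co-treated libraries. Neither range met that of its neighbour above, so that WARS, VARS and CARS were separate steps. Of the 19 pairs of neighbours in the cytosolic order, 4 did not overlap over the 6 libraries, NARS over KARS, HARS over FARSA, WARS over VARS and VARS over CARS.

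The mitochondrial set was headed by IARS2, the isoleucyl enzyme, which had more FPKM than 94.5% of the expressed genes. IARS2 had 57.4 and 56.6 FPKM in control, 49.04 and 47.78 with alcohol, and 53.5 and 58.4 in co-treated libraries. RARS2, the arginyl enzyme, had 32.9 and 28.0 in control, 35.64 and 36 with alcohol, and 35.7 and 35.4 in co-treated libraries. Both genes stood apart from the rest of the set, since neither range met that of any other mitochondrial member.

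TARS2 and HARS2, the threonyl and histidyl enzymes, followed at about the same level. TARS2 had 16.2 and 15.4 FPKM in control, 17.1 and 17.6 with alcohol, and 19.3 and 16.4 in co-treated libraries. HARS2 had 15.97 and 15.51 in control, 14.6 and 18.7 with alcohol, and 17.6 and 17.0 in co-treated libraries. From there the means went down by small steps, from 15.0 for CARS2, 11.9 for VARS2, 11.3 for NARS2 and 9.72 for LARS2 to 8.34 for YARS2, 8.19 for EARS2, 8.04 for SARS2, 7.12 for WARS2, 7.02 for FARS2 and 6.55 for AARS2.

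MARS2 and PARS2, the methionyl and prolyl enzymes of the mitochondrion, were the lowest. MARS2 had 3.31 and 3.00 FPKM in control, 3.11 and 3.60 with alcohol, and 2.29 and 2.68 in co-treated libraries. PARS2 had 2.80 and 2.81 in control, 3.46 and 2.29 with alcohol, and 2.80 and 3.14 in co-treated libraries. They were the only members below the median level of the expressed genes, above 45.6% and 45.0% of them. Of the 15 pairs of neighbours in the mitochondrial order, 3 did not overlap, IARS2 over RARS2, RARS2 over TARS2 and AARS2 over MARS2.

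Levels of class I and class II enzymes lay close together, and those of the complex were somewhat higher than those outside it. Cytosolic class I genes had a median of 38.9 FPKM (9 genes) and class II genes 34.3 (10 genes), with EPRS, which joins both classes, left out. Mitochondrial class I genes had a median of 9.72 (9 genes) and class II genes 8.04 (7 genes). The 8 synthetases of the multi-synthetase complex (QARS, KARS, IARS, MARS, RARS, EPRS, DARS and LARS) had a median of 40.7 with the lowest at 28.99 for LARS, and the 12 cytosolic genes outside it had a median of 29.6 and went down to 7.97. These medians describe genes and were not tested.

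For 17 pairs of a cytosolic and a mitochondrial gene that charge the same amino acid, the cytosolic gene was higher in all 6 libraries in 14. The ratio of the cytosolic to the mitochondrial FPKM was widest for methionine, where MARS over MARS2 ran from 11.6 to 16.1 with a median of 14.2, and for proline, where EPRS over PARS2 ran from 9.84 to 16.1 with a median of 14.4. Asparagine, serine and alanine had median ratios of 6.30, 5.94 and 5.14.

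Isoleucine and cysteine went the other way. IARS2 exceeded IARS in every library, with a ratio of IARS to IARS2 between 0.857 and 0.977, and CARS2 exceeded CARS in every library, with a ratio between 0.409 and 0.760. Arginine was near parity, with RARS over RARS2 between 1.02 and 1.56. Histidine, whose genes start 85 bases apart, had a ratio of HARS to HARS2 between 1.32 and 1.93.

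Valine was the one pair whose order differed between libraries. VARS over VARS2 was 1.56 and 1.36 in the control libraries, 1.25 and 0.847 with alcohol, and 0.992 and 0.837 in co-treated libraries. VARS was thus the higher gene in both control libraries and VARS2 in both co-treated ones, with the alcohol libraries on either side of parity.

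**Figure D2:**
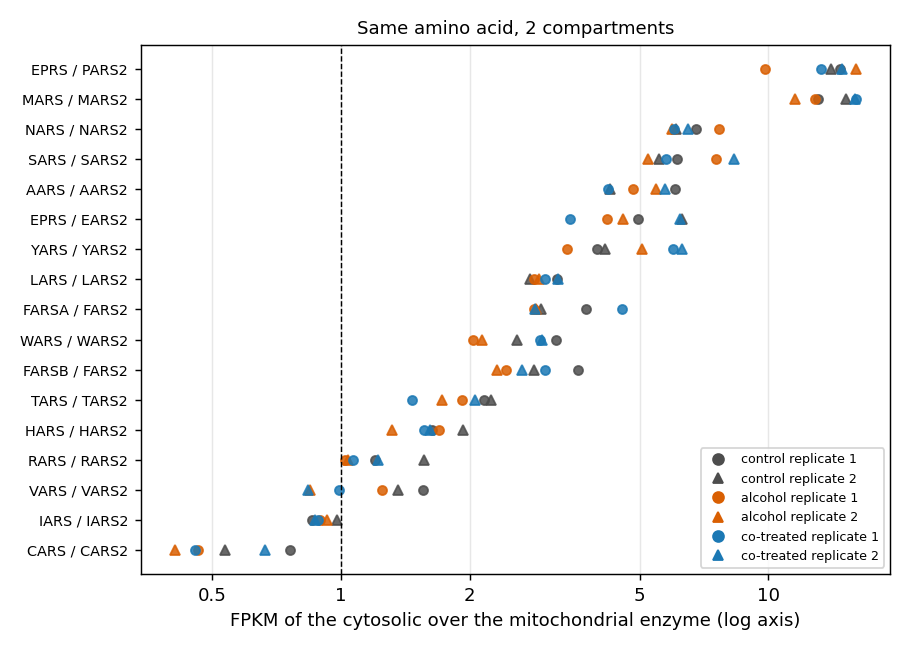
Ratio of the cytosolic to the mitochondrial FPKM for the 17 pairs that charge the same amino acid, on a log axis with a line at a ratio of 1, with 1 point per library coloured by group. CARS/CARS2 and IARS/IARS2 lie below the line in all 6 libraries, VARS/VARS2 lies on both sides, and the other pairs lie above it.

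Summed over the sets, the cytosolic FPKM was 744 and 763 in control, 733 and 747 with alcohol, and 743 and 801 in co-treated libraries. The mitochondrial sum was 211 and 219 in control, 219 and 224 with alcohol, and 226 and 223 in co-treated libraries. The cytosolic sum was therefore 3.52 and 3.49 times the mitochondrial sum in control (3.50 ± 0.03, SD, n = 2). It was 3.35 and 3.33 times with alcohol (3.34 ± 0.01, SD, n = 2). In co-treated libraries it was 3.28 and 3.60 times (3.44 ± 0.22, SD, n = 2).

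Both alcohol libraries lay below both control libraries in this ratio, and the co-treated libraries lay on either side of all the others. With 2 libraries against 2, an exact two-sided permutation test cannot give a p under 0.3333, and the ratio was not tested. The control mean stayed above the alcohol mean with medians in place of sums (3.81 against 3.45), without GARS, KARS and EPRS (2.89 against 2.76) and with expected counts (3.59 against 3.45).

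**Figure D3:**
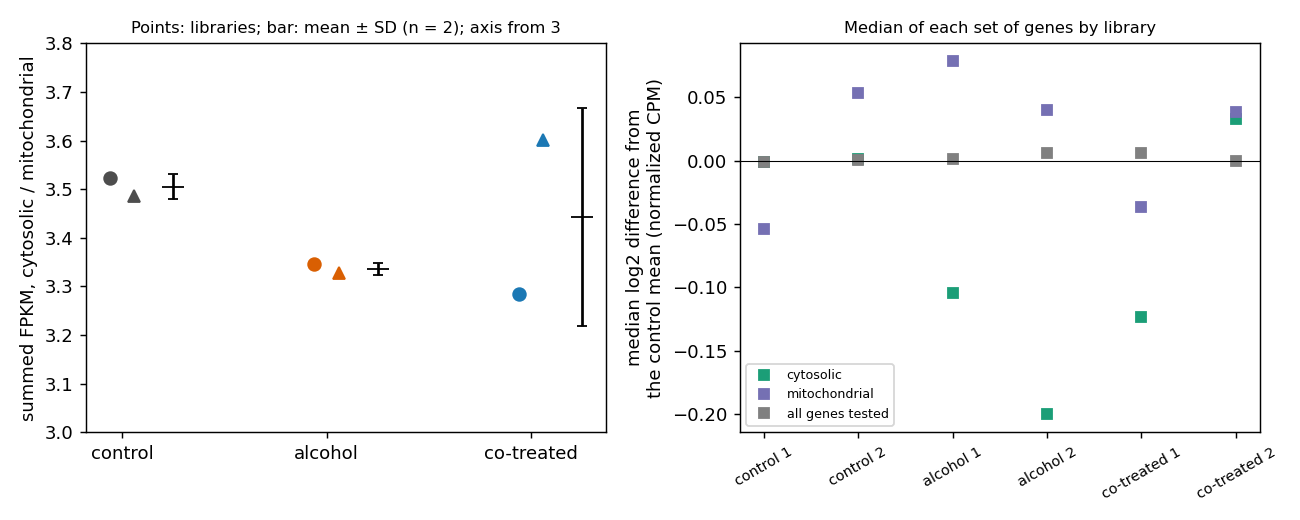
Left, the ratio of summed cytosolic to summed mitochondrial FPKM, 1 point per library (circle for replicate 1, triangle for replicate 2) beside the mean and SD, on an axis that does not start at 0. Right, the median log2 difference of each set from the mean of the control libraries, beside that of all 14926 genes tested. The alcohol libraries lie at −0.10 and −0.20 for the cytosolic set, and all genes stay within 0.01 of 0, where their points cover the cytosolic ones of control.

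The first comparison asked which synthetases differed between alcohol and control. Most cytosolic members were lower with alcohol, by small amounts, the mitochondrial median lay slightly above 0, and no single gene passed the test. For the mitochondrial set the median difference from the control mean was −0.05 and 0.05 in the control libraries. It was 0.08 and 0.04 in the alcohol libraries, so that alcohol replicate 2 lay within the control spread. The fitted log2 fold change was below 0 for 14 of the 20 cytosolic members and for 5 of the 16 mitochondrial ones, against 50.6% of all genes tested. Its median was −0.17 for the cytosolic set, 0.05 for the mitochondrial set and −0.0033 for all 14926 genes. Leaving out alcohol replicate 1 gave a mitochondrial median of 0.03, leaving out replicate 2 gave 0.08, and it was 0.10 in limma on log2(FPKM + 0.1). In edgeR's quasi-likelihood test with Benjamini-Hochberg adjustment over all genes tested, 0 of the 36 members were called at an adjusted p under 0.05, where 10 genes in all were called (0.0670%). An unadjusted p under 0.05 was reached by 3 of the 36 members, against 11.0% of all genes, with 1 member higher (5.27% of all genes) and 2 lower (5.78%). The 3 became 0 without control replicate 2 or without alcohol replicate 2, 1 without control replicate 1 and 5 without alcohol replicate 1.

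These 3 were QARS, IARS and IARS2. QARS (chr3:49095932-49104757, GRCh38.p14) was higher in both alcohol libraries than in both controls, at a mean of 98.6 ± 6.1 FPKM against 78.1 ± 6.3 (SD, n = 2 each). Its log2 fold change was 0.29 with an SE of 0.12, which is 1.23-fold (edgeR adjusted p = 0.380, and 0.289 to 0.919 over the alternatives). In GENCODE 29 only the microRNA gene MIR6890 shares exon sequence with QARS.

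IARS (chr9:92210207-92293697) had 49.2 and 55.3 FPKM in control, 43.7 and 44.3 with alcohol, and 47.2 and 50.9 in co-treated libraries. The alcohol libraries lay below both other groups, with a log2 fold change against control of −0.28 and an SE of 0.12 (edgeR adjusted p = 0.394, and 0.317 to 0.922 over the alternatives). IARS2 (chr1:220094132-220148041), its mitochondrial counterpart, had the same order of groups, with 48.4 ± 0.9 FPKM with alcohol against 57.0 ± 0.6 in control (SD, n = 2 each). Its log2 fold change was −0.27 with an SE of 0.12 (edgeR adjusted p = 0.407, and 0.343 to 0.944 over the alternatives). The exons of both isoleucyl genes overlap those of no other gene in GENCODE 29.

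**Figure D4:**
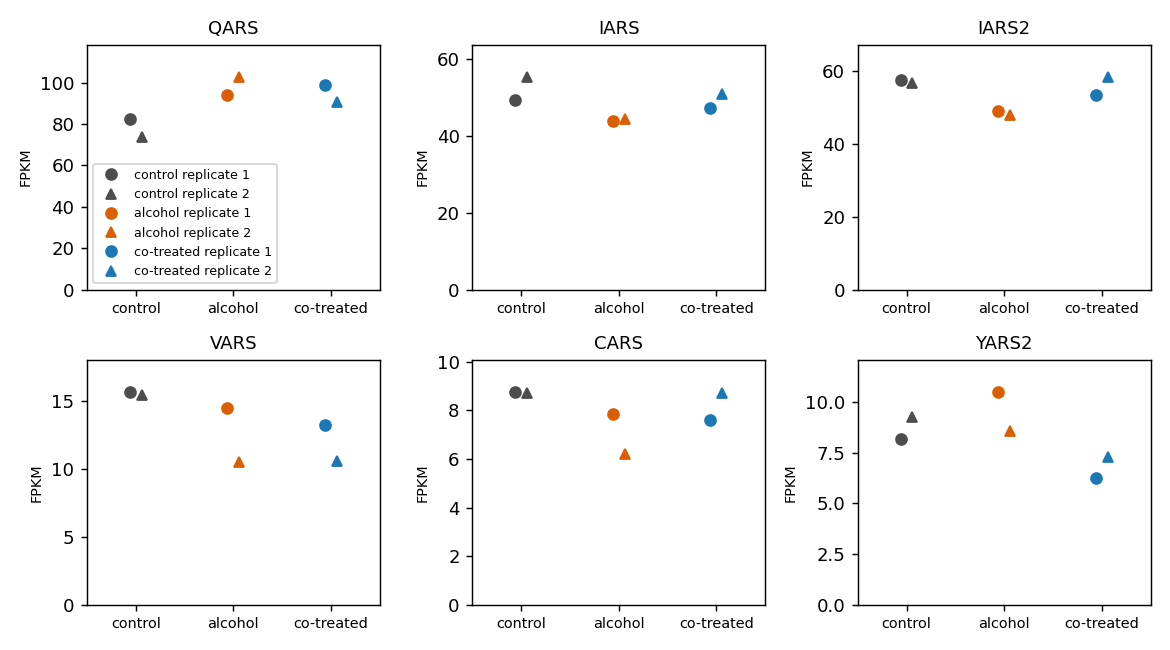
FPKM of QARS, IARS, IARS2, VARS, CARS and YARS2 on axes from 0, with 1 point per library (circle for replicate 1, triangle for replicate 2) in each group. In QARS the alcohol libraries (94.3 and 103) lie above both controls, and in IARS and IARS2 they lie below both controls and both co-treated libraries.

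Most of the other lower cytosolic genes were lower in both alcohol libraries. By normalized counts, 12 of the 20 cytosolic members had both alcohol libraries below both controls, against 21.8% of all genes tested and 22.7% of the 6972 genes in the FPKM range of the cytosolic set. They were CARS, EPRS, FARSB, GARS, HARS, IARS, LARS, MARS, RARS, TARS, VARS and WARS, and by FPKM the count was 11, against 17.7%. QARS was the only cytosolic member with both alcohol libraries above both controls by normalized counts, against 22.0% of all genes. On the mitochondrial side 2 of the 16 members lay wholly lower (IARS2 and LARS2) and 2 wholly higher (RARS2 and WARS2). Of the 10326 genes in the FPKM range of that set, 21.8% lay wholly lower and 22.8% wholly higher. By FPKM the mitochondrial counts were 1 lower, against 17.7% of all genes, and 5 higher, and 3 cytosolic members lay wholly higher. The share of all genes wholly higher by FPKM was not computed, so the 2 higher counts have nothing to be read against.

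Each kind of cytosolic enzyme had a median below 0. The median log2 fold change was −0.18 for class I and −0.12 for class II, −0.19 inside the multi-synthetase complex and −0.17 outside it. The 6 genes with the composite element in their promoter had a median of −0.18 and the 10 with a matched promoter but no element −0.17. In co-treated against control cells the same medians were −0.15 and −0.01, with 5 of 6 and 6 of 10 genes below 0, against 50.2% of all genes. In co-treated against alcohol cells they were 0.06 and 0.09, and none of these medians was tested. By library, the median difference of the cytosolic set from the control mean was −0.10 in alcohol replicate 1 and −0.20 in alcohol replicate 2. Alcohol replicate 2 also had the lowest marker sums, 19787 for cardiomyocytes and 722 for smooth muscle, and the part of these in the difference was not tested. The cytosolic median was −0.10 without that library and −0.19 without the other alcohol library.

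Over the 36 members the 95% intervals of the log2 fold change ran from −0.81 to 0.76, all 36 lay within a 2-fold change, and 29 lay within 1.5-fold. Cytosolic members were well matched between control replicates, with a median absolute log2 difference of 0.07 against 0.17 for all genes. Between alcohol replicates it was 0.12 against 0.19, and the level of the genes was not matched. Among cytosolic members DARS, the aspartyl enzyme, differed most between alcohol replicates, at 38.7 and 26.5 FPKM, so that its alcohol libraries lay on either side of both controls.

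**Figure D5:**
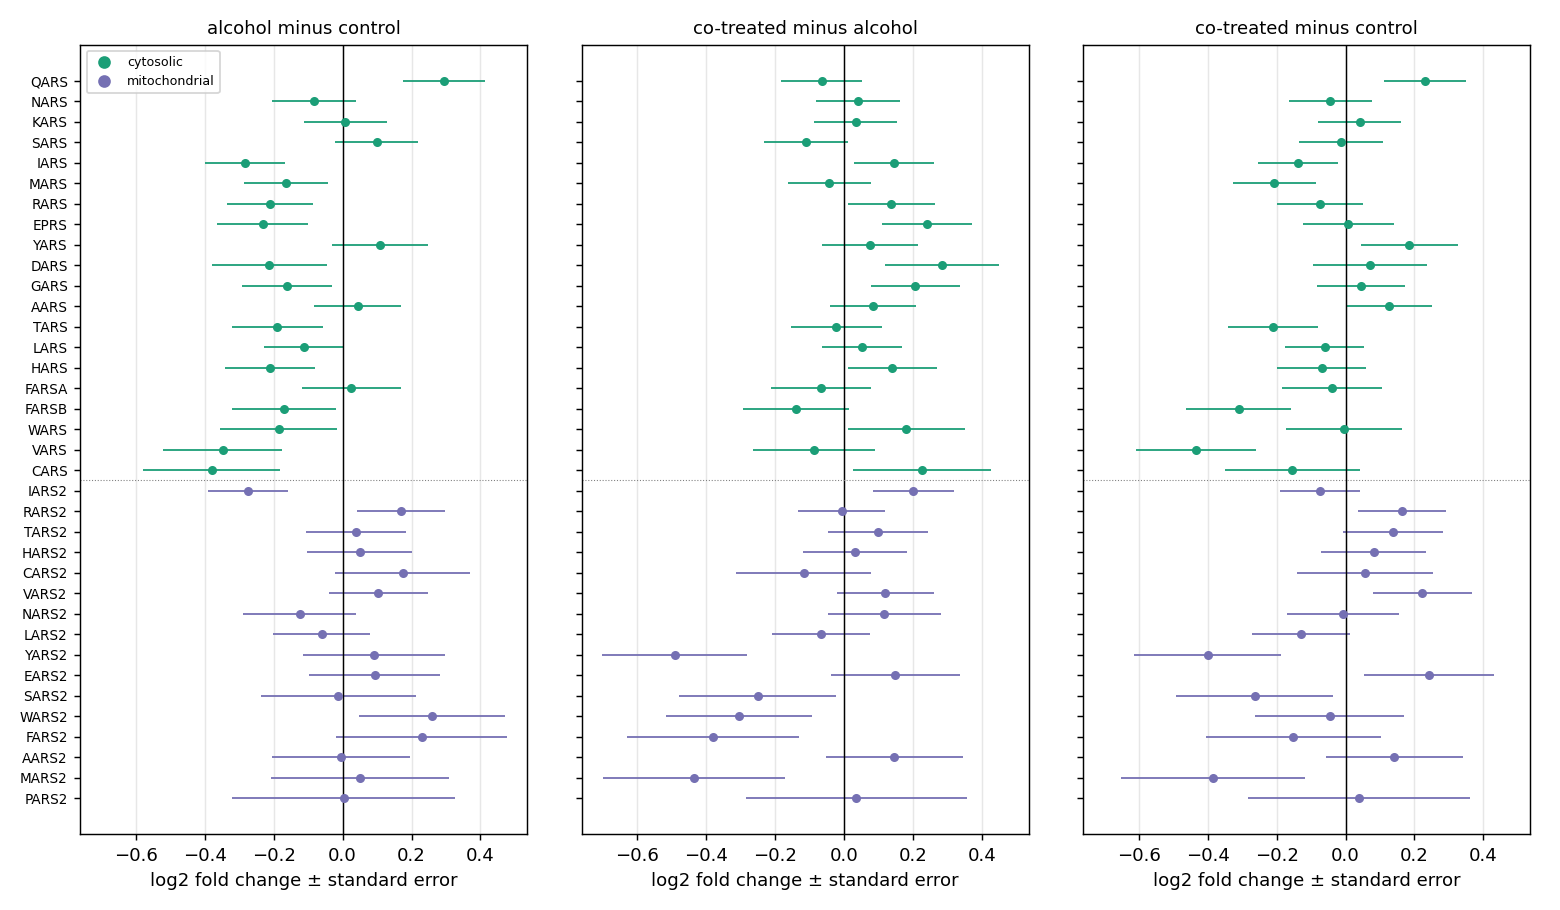
Fitted log2 fold change of each of the 36 members in the 3 comparisons, with bars for the standard error, cytosolic and mitochondrial members in separate colours, and genes in the order of their level. In alcohol minus control 14 of 20 cytosolic members lie below 0, and the longest bars belong to low genes such as PARS2 and MARS2.

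The second comparison asked whether losartan given with alcohol altered the synthetases relative to alcohol alone. It shares the alcohol libraries with the first comparison, so a value low in the alcohol libraries enters both, with opposite sign. No member was called (0 of 36, against 2 genes or 0.0134% in all), and 1 member had an unadjusted p under 0.05, against 5.55% of all genes and 2.71% with a lower level. The median log2 fold change was 0.06 for the cytosolic set, 0.01 for the mitochondrial set and 0.0023 for all genes, with 7 of 20 and 8 of 16 members below 0, against 49.7% of all genes. The cytosolic median rested on the co-treated libraries, at 0.0013 without replicate 2 and 0.14 without replicate 1.

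The 1 member was YARS2 (chr12:32746544-32755897), the mitochondrial tyrosyl enzyme. It had 8.19 and 9.23 FPKM in control, 10.5 and 8.58 with alcohol, and 6.27 and 7.30 in co-treated libraries. Both co-treated libraries lay below the other 4. The log2 fold change of co-treated against alcohol was −0.49 with an SE of 0.21 (edgeR adjusted p = 0.888, and 0.690 to 1.00 over the alternatives). Leaving out alcohol replicate 1 gave −0.30, and leaving out replicate 2 gave −0.67. Against control it was −0.40 with an SE of 0.21 (edgeR adjusted p = 0.471).

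Both co-treated libraries lay above both alcohol libraries by normalized counts in 5 cytosolic genes, EPRS, GARS, HARS, IARS and RARS, against 17.4% of all genes, and below them in none, against 16.2%. In the mitochondrial set of 16, 4 lay above (AARS2, IARS2, NARS2 and VARS2) and 5 below (FARS2, LARS2, MARS2, WARS2 and YARS2). Of the 10326 genes in its FPKM range, 17.7% lay above and 16.1% below. IARS2 had a log2 fold change of 0.20 with an SE of 0.12 and IARS 0.15 with an SE of 0.12, neither past an unadjusted p of 0.05 in edgeR. QARS had a log2 fold change of −0.06 with a 95% interval from −0.32 to 0.19. Of the 36 intervals, 35 lay within a 2-fold change and 28 within 1.5-fold, and the exception was MARS2, whose interval reached −1.01.

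The third comparison set co-treated against control cells and shares its libraries with both others. No member was called (0 of 36, against 54 genes or 0.362% in all), and 1 had an unadjusted p under 0.05, against 12.6% of all genes and 6.37% with a lower level. The median log2 fold change was −0.04 for the cytosolic set and 0.02 for the mitochondrial set, beside −0.0017 for all genes, with 13 of 20 and 8 of 16 members below 0, against 50.2% of all genes. By normalized counts 6 cytosolic and 3 mitochondrial members lay wholly below control, against 21.7% of all genes, and 3 and 3 lay wholly above it, against 21.6%. The replicates of the co-treated group were the least alike for cytosolic members, with a median absolute log2 difference of 0.21. Over all genes it was also 0.21 in this group. Co-treated replicate 2 had the highest level of 7 of the 20 cytosolic genes, and the cytosolic median was −0.12 in replicate 1 and 0.03 in replicate 2.

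VARS (chr6:31777518-31795752) was the member with the lowest unadjusted p. Its mean was 11.9 ± 1.9 FPKM in co-treated libraries and 15.54 ± 0.16 in control (SD, n = 2 each). The log2 fold change was −0.43 with an SE of 0.17 (edgeR adjusted p = 0.317, and 0.180 to 0.718 over the alternatives). Leaving out co-treated replicate 1 gave −0.59, and leaving out the other gave −0.29. Alcohol against control, which shares the controls, gave −0.35 with an SE of 0.17 (edgeR adjusted p = 0.491), and leaving out alcohol replicate 2 gave −0.10 where leaving out replicate 1 gave −0.63. Its mitochondrial counterpart VARS2 had a log2 fold change of 0.22 with an SE of 0.14, so that the pair leaned apart. FARSB, the beta subunit of the phenylalanyl enzyme, had −0.31 with an SE of 0.15 (edgeR adjusted p = 0.426), and −0.16 without co-treated replicate 1.

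Taking all 4 libraries that received alcohol against the 2 controls, CARS, FARSB, IARS, MARS, TARS and VARS lay below both controls in every one by normalized counts. That is 6 of 20 cytosolic members, against 11.3% of all genes. LARS2 was the only mitochondrial member to do so. By FPKM, FARSB, MARS, TARS and VARS lay below both controls in every one. The share of all genes that did so by FPKM was not computed, in either direction. IARS had 50.9 in co-treated replicate 2 against 49.2 in control replicate 1, and CARS had 8.72 in both co-treated replicate 2 and control replicate 2. LARS2 had 10.1 in alcohol replicate 2 against 9.49 in control replicate 1. QARS and RARS2 lay above both controls in every one by normalized counts, against 11.8% of all genes. By FPKM TARS2 and VARS2 did as well, and that share is not one by FPKM. RARS2, the mitochondrial arginyl enzyme, had a log2 fold change against control of 0.17 with alcohol and 0.16 with co-treatment, each with an SE of 0.13. Both rested on the control libraries, being 0.06 and 0.04 without control replicate 2 and 0.32 and 0.30 without control replicate 1.

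The genes around the synthetases in translation were read from 5 lists, chosen with earlier results of these data known. Of the 3 scaffold proteins of the multi-synthetase complex, AIMP2 had a log2 fold change with alcohol of −0.39 and an SE of 0.17 (edgeR adjusted p = 0.406), while AIMP1 had 0.04 and EEF1E1 −0.10. Of 15 genes of tRNA maturation and export, 12 were below 0 with alcohol, against 50.6% of all genes, with a median of −0.17. Among them XPOT, the export receptor of transfer RNA, had −0.35 with an SE of 0.12 (edgeR adjusted p = 0.305). AARSD1, an editing protein that clears wrongly charged alanine tRNA, had −0.63 with an SE of 0.22 (edgeR adjusted p = 0.290). Neither the 15 cytosolic nor the 13 tested mitochondrial translation factors had such a lean, with medians of 0.05 and 0.00. Of the cytosolic factors 2 were higher and 2 lower at an unadjusted p under 0.05, against 5.27% and 5.78% of all genes. The lowest p belonged to GSPT1, at −0.41 with an SE of 0.11 (edgeR adjusted p = 0.179).

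XPOT stands both in the list of tRNA maturation and export and in the amino acid response list, and counts among the lower genes of each. The amino acid response list held ATF4 and known targets of it outside the family, and 31 of its 33 genes were tested. With alcohol its median log2 fold change was −0.18 and 20 genes were below 0, against 50.6% of all genes. An unadjusted p under 0.05 was reached by 6 lower genes and 1 higher, against 5.78% and 5.27% of all genes. The lower ones included PYCR1, an enzyme of proline synthesis, at −0.66 with an SE of 0.18 and SLC7A5, a carrier of large neutral amino acids, at −0.61 with an SE of 0.21. The higher one was ATF3, a stress-induced transcription factor, at 0.73 with an SE of 0.19. The edgeR adjusted p was 0.181 for PYCR1, 0.286 for SLC7A5 and 0.170 for ATF3.

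Against control, co-treated cells had a median of −0.31 over the same list, with 10 lower and 3 higher genes at an unadjusted p under 0.05, against 6.37% and 6.26% of all genes. CBS, which makes cystathionine from homocysteine and serine, had −0.64 with an SE of 0.13 (edgeR adjusted p = 0.0601). In co-treated against alcohol cells the median was −0.14 with 19 of 31 genes below 0, against 49.7% of all genes. At an unadjusted p under 0.05, 2 genes were higher and 2 lower, against 2.84% and 2.71% of all genes. Among the lower ones ATF3 had −0.83 with an SE of 0.19 (edgeR adjusted p = 0.471). No gene of the 5 lists was called in any of the 3 comparisons.

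Shared sequence limits some members. Expected counts were not whole numbers (beyond 0.005) in all 6 libraries for SARS, LARS, RARS2, TARS2, YARS2 and AARS2, so that part of their reads was divided among genes by the authors' software. In GENCODE 29, 17 of the 36 members share exon sequence with a gene on the other strand, among them MARS with DDIT3, HARS with HARS2 and WDR55, KARS with TERF2IP and YARS with S100PBP. The sources do not say whether the libraries kept the strand, so reads of such pairs may not be told apart. The expected counts of MARS, HARS, KARS and YARS were whole in every library. DDIT3 is a stress gene of the same response. On the same strand 6 members share exon sequence with another gene, among them VARS2 with GTF2H4 and HARS2 with ZMAT2. Keeping the strand would not separate reads of such pairs, though the expected counts of VARS2 and HARS2 were whole in every library. IARS, IARS2 and VARS share exon sequence with no other gene on either strand.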

How the data were processed

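RNA was sequenced from 6 libraries, 2 in each of 3 groups assigned from the treatment label. The authors deposited an expected count and an FPKM value per gene and library. Their processing notes name hg38, HISAT2 2.0.4, Bowtie2 2.2.5 and RSEM 1.2.12 without saying what each did. How reads were aligned and counted is not otherwise given in the sources used here.

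Levels were compared as FPKM, which the authors divided by transcript length and library size. Expected counts were rounded to whole numbers and tested with edgeR 4.0.16 in R 4.3.3 (TMM normalization, filterByExpr by group, quasi-likelihood F test, two-sided) on all 6 libraries in 1 fit. All genes tested (14926) were adjusted together by Benjamini-Hochberg, with calls at 0.05. A count of 3 equals 0.594 to 0.612 in CPM, and intervals cover only the spread between libraries. Replicates differed by more than sampling noise (chi-square per degree of freedom 4.64 to 7.62). The script was tested on simulated data.

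Values in every library are given for the 4 highest and 2 lowest members of each set and for members at an unadjusted p under 0.05. The members and lists were chosen with earlier results of these data known. Alternatives used DESeq2 1.42.0, limma 3.58.1 on log2(FPKM + 1) and log2(FPKM + 0.1), other filters, RLE scaling, a replicate block and libraries left out. Places and promoters are from RefSeq GRCh38.p14, overlaps from GENCODE 29.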

Additional observations from a re-analysis of the deposited data

How the results depend on the processing

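No synthetase was called under any alternative tried, although a left-out library of a compared group leaves 1 library in that group, which is then assumed to vary like the other groups, and no member named for its p-value reversed direction. The number of all genes called depended strongly on the setting. For alcohol against control it was 10, and it was 2 without a filter, 26 with at least 10 counts in every library, 3 with only the 2 groups compared, 72 with DESeq2, 0 and 2 with limma on log2(FPKM + 1) and log2(FPKM + 0.1), and 1 to 220 with 1 library left out (1 without alcohol replicate 2, 220 without alcohol replicate 1). For co-treated against alcohol it was 2, and it was 1 without a filter, 0 with at least 10 counts, 4 with only the 2 groups, 5 with DESeq2, 1 with limma on log2(FPKM + 1), and 1 (without co-treated replicate 2) to 24 (without alcohol replicate 1) with 1 library left out. For co-treated against control it was 54, and it was 15 without a filter, 158 with only the 2 groups, 123 with DESeq2, 2 and 3 with limma, and 2 (without co-treated replicate 2) to 184 (without alcohol replicate 1) with 1 library left out. Same-numbered libraries deviated together little over all genes (correlations 0.11, −0.02 and 0.04), which cannot show whether they share a culture or batch. The labels do not say so either, and the replicate block gave 48, 5 and 136 calls in the 3 comparisons. The 1 member with an unadjusted p under 0.05 became 3 without either co-treated library for co-treated against alcohol, and for co-treated against control 0 without control replicate 1 and 2 or 3 without the first or the other co-treated library.

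The cytosolic median for alcohol against control stayed between −0.19 and −0.10. The cytosolic median for co-treated against control went from −0.13 without co-treated replicate 2 to 0.03 without co-treated replicate 1. The mitochondrial median with 1 library left out ran from −0.050 (without alcohol replicate 2) to 0.0082 for co-treated against alcohol and from −0.10 (without control replicate 1) to 0.048 for co-treated against control. The ratio of the sums in co-treated libraries was 3.44, and it was 4.20 with medians and 2.82 without GARS, KARS and EPRS. The corresponding control and alcohol ratios were 3.81 and 3.45, and 2.89 and 2.76, and with expected counts 3.59 and 3.45. The counts of members not overlapping by FPKM and the genes of the same FPKM range were added after the data were seen. The causes were not tested. At this depth and with 2 libraries a group, the 95% interval reached past a 1.5-fold change for 7 of the 36 members in the first comparison and for 8 in each of the others.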
